A study of Homo sapiens with 4 samples.

Results

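Keratins of suprabasal and stressed stratified epithelium were followed in MCF12A cells, an established non-tumorigenic line of human breast epithelium grown here as monolayers. The set named 8 genes, KRT1, KRT10, KRT4, KRT13, KRT16, KRT6A, KRT6B and KRT17, chosen by their role and by values on the same 4 arrays. In the array annotation, 18417 genes had a probe set that named them alone. KRT1, KRT10, KRT4, KRT13 and KRT16 had 1 probe set each that names only that gene, and all 5 passed the filter on dim signal. KRT6A, KRT6B and KRT17 had no probe set that names only that gene in the annotation used, and they were not analysed here. Because the values on these arrays chose the genes, what follows describes them and tests nothing.

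The exposed cultures were kept for 1 week in 25 mM ethanol, with an unexposed culture of the same experiment as its control (control 1), or for 1 week in 2.5 mM acetaldehyde, to which cells oxidise ethanol, with an unexposed culture of that experiment (control 2). All 4 were grown on plastic in the same medium, which held horse serum, cholera toxin, insulin, hydrocortisone and epidermal growth factor. Each culture gave total RNA for 1 Affymetrix Human Gene 1.0 ST array, so there was 1 array per group and no replicate check. Differences are log2 differences of an exposed array from its own control, and a gene was counted when it was at least 2-fold apart. Counts over all genes refer to the 10373 genes whose brightest array reached an intensity of 155, the median of all values that name a gene. The median intensity over all probe sets was 90.2 with ethanol, 92.2 in control 1, 113 with acetaldehyde and 114 in control 2. The value distributions lay closer within each experiment (a mean of 0.0398 and 0.0268 apart in log2) than between experiments (0.270 to 0.285).

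Keratins build the intermediate filaments of epithelial cells, and each filament needs an acidic type I chain paired with a basic type II chain. KRT1 (type II) pairs with KRT10 (type I) in the layers above the basal layer of the epidermis, and KRT4 (type II) pairs with KRT13 (type I) in the suprabasal layers of the lining of the mouth and oesophagus. KRT6A, KRT6B, KRT16 and KRT17 are the stress keratins, which are induced in wounded or hyperproliferative skin. In breast epithelium, KRT5 and KRT14 mark the basal cells and KRT8 and KRT18 the luminal cells.

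The RefSeq promoters (GRCh38.p14) used here included those of KRT10 and KRT4, 2 of the 8 genes. Promoters of the other genes were not in the set used and were not analysed here. The 250 bases before each start, both on the minus strand, are shown because only these 2 were available. Among the measured keratins, KRT10 and KRT4 also had the largest differences with ethanol, and their patterns over the controls differed. Capitals mark exact matches of TATAAA, a form of the TATA box, of TGANTCA, the site of AP-1, and of CACCC, the core of KLF sites. Each was searched on both strands, with no overlaps among the matches. The KRT10 promoter lies at chr17:40822615-40822864 and the KRT4 promoter at chr12:52814117-52814366.
KRT10: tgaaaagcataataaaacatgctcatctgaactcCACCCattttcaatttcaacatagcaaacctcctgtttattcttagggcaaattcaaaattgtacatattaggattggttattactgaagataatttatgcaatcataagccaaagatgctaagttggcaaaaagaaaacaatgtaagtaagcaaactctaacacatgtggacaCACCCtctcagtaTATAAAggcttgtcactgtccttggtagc
KRT4: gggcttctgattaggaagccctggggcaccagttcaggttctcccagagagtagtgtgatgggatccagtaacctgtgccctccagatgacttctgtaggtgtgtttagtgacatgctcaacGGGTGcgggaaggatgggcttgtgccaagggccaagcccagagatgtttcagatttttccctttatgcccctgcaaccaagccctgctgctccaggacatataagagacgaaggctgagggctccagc

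KRT10 held 1 TATAAA, beginning 29 bases before the start, a motif found in 10.7% of 35116 promoters of the same length. It also held CACCC at 2 places, beginning 216 and 42 bases before the start. KRT4 held 1 CACCC, read on the other strand, 128 bases before the start, and no exact TATAAA in this window. It did hold TATAAG, which differs in the last letter and was not searched for, also beginning 29 bases before the start. CACCC was present in 54.7% of all promoters. TGANTCA, present in 6.57% of all promoters, matched in neither. The base composition differed, with 34.8% G and C in the KRT10 window and 54.8% in the KRT4 window. A match here describes letters and is not a bound site.

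All 5 measured keratins were lower on each exposed array than on its own control. With ethanol, 4 of 5 (KRT10, KRT4, KRT16 and KRT13) were at least 2-fold lower and 0 were higher, beside 2.11% of the 10373 genes lower and 1.17% higher. With acetaldehyde, 3 of 5 (KRT10, KRT16 and KRT1) were at least 2-fold lower and 0 were higher, beside 0.212% of all genes lower and 0.0289% higher. KRT1 is dim, passed the filter through control 2 alone and fell short of 2-fold (-0.80) when 50 was added to every intensity. Control 2 was at least 2-fold below control 1 for KRT4 and KRT13, 2 of 5, beside 4.85% of all genes, and at least 2-fold above it for KRT1, beside 4.25%. The median difference of the 5 genes was -2.51 with ethanol, -1.08 with acetaldehyde and -0.64 between the controls, where all genes had medians of 0.05, 0.00 and 0.06. These contrasts chose the genes, so the shares are given as background and nothing is read from them. In whole cultures such as these, fewer cells carrying a keratin and less of its RNA per cell cannot be told apart.

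**Figure D1:**
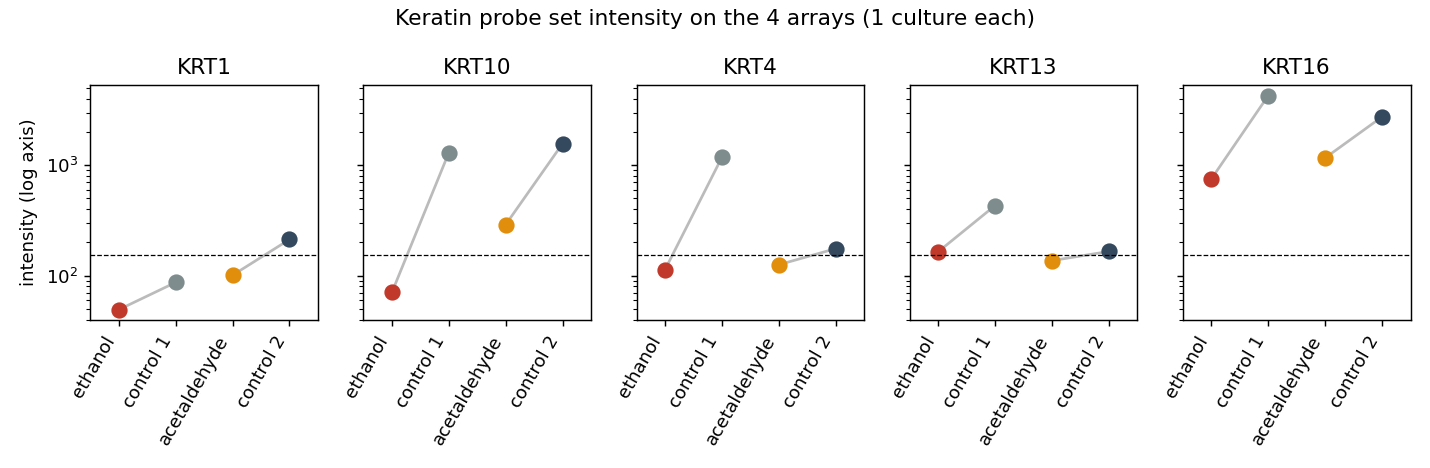
Probe set intensity (log axis) of 5 keratin genes on the 4 arrays, 1 culture each, with a grey line joining each exposed array to its own control and a dashed line at the filter intensity of 155. KRT10 and KRT16 were high in both controls, whereas KRT4 and KRT13 were high in control 1 alone and KRT1 was brightest in control 2.

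KRT10, the type I keratin of the differentiating epidermal cell, measured 70.5 intensity units with ethanol against 1298 in control 1, and 290.0 with acetaldehyde against 1571 in control 2. Both controls were high and lay within 1.21-fold of each other, and both exposed arrays lay below both of them. KRT10 was thus 18.4-fold lower with ethanol (-4.20), at 5.43% of control 1, and 5.42-fold lower with acetaldehyde (-2.44), at 18.5% of control 2. Of the 10373 genes it was the lowest in the acetaldehyde comparison and ranked 10 from the bottom in the ethanol comparison. Its ethanol value lay below that array's median of 90.2, so that the fold is least certain there, and with 50 added to every intensity before taking log2 the ethanol difference was -3.48. Set against the control of the other experiment, the differences were -4.48 for ethanol and -2.16 for acetaldehyde.

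KRT1, the type II partner of KRT10, was dim. It measured 49.2 intensity units with ethanol against 86.9 in control 1, and 101 with acetaldehyde against 213 in control 2. Only control 2 lay above the filter intensity and above its array's median, so the gene passed the filter through the array that acetaldehyde is set against. KRT1 was 1.77-fold lower with ethanol (-0.82) and 2.11-fold lower with acetaldehyde (-1.08), whereas control 2 was 2.45-fold above control 1 (1.29). The acetaldehyde array lay above control 1, so the acetaldehyde difference turned to 0.22 against the control of the other experiment. The partners thus shared the direction of both matched differences, while control 2 was 2.45-fold above control 1 for KRT1 and 1.21-fold above it for KRT10.

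KRT4, the type II keratin of mucosal lining, measured 113 intensity units with ethanol against 1180.4 in control 1, and 126 with acetaldehyde against 176 in control 2. Control 1 stood apart from the other 3 arrays. The gene was 10.4-fold lower with ethanol (-3.38), 1.40-fold lower with acetaldehyde (-0.48) and 6.72-fold lower in control 2 than in control 1 (-2.75). Against the control of the other experiment, the ethanol difference was -0.63 and the acetaldehyde difference -3.23.

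KRT13, the type I partner of KRT4, measured 164 intensity units with ethanol against 431 in control 1, and 137 with acetaldehyde against 166 in control 2. Control 1 again was the high array. KRT13 was 2.62-fold lower with ethanol (-1.39), 1.21-fold lower with acetaldehyde (-0.28) and 2.60-fold lower in control 2 than in control 1 (-1.38). The ethanol array and control 2 differed by -0.01. For both KRT4 and KRT13 the ethanol difference and the difference between the controls subtract the same array, control 1, and an effect of ethanol cannot be told apart from a deviation of that 1 culture.

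KRT16, the type I stress keratin, measured 750.3 intensity units with ethanol against 4267 in control 1, and 1164 with acetaldehyde against 2743 in control 2. Both exposed arrays lay below both controls, and all 4 values were well above the filter. KRT16 was 5.69-fold lower with ethanol (-2.51), at 17.6% of control 1, and 2.36-fold lower with acetaldehyde (-1.24), at 42.4% of control 2. Control 2 was 1.56-fold below control 1 (-0.64). Among all genes KRT16 ranked 4 from the bottom with acetaldehyde and 57 with ethanol.

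KRT16 has close pseudogene copies, and 1 further probe set is shared by KRT16 and 3 pseudogenes. That probe set was at 603 with ethanol against 1580.2 in control 1, and at 524 with acetaldehyde against 957 in control 2. It was lower in the same directions but by less, 2.62-fold with ethanol (-1.39) and 1.83-fold with acetaldehyde (-0.87). The size of the KRT16 differences is therefore uncertain between these values, and at the shared probe set the acetaldehyde difference missed 2-fold.

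KRT10 and KRT16 were among the 16 genes, 0.154% of all, that were at least 2-fold lower with both exposures. The ethanol dose was 25 mM and the acetaldehyde dose 2.5 mM, so the sizes are set side by side and not compared as potencies. KRT10, KRT4, KRT13 and KRT16 had the larger matched difference with ethanol, and KRT1 had the larger one with acetaldehyde.

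**Figure D2:**
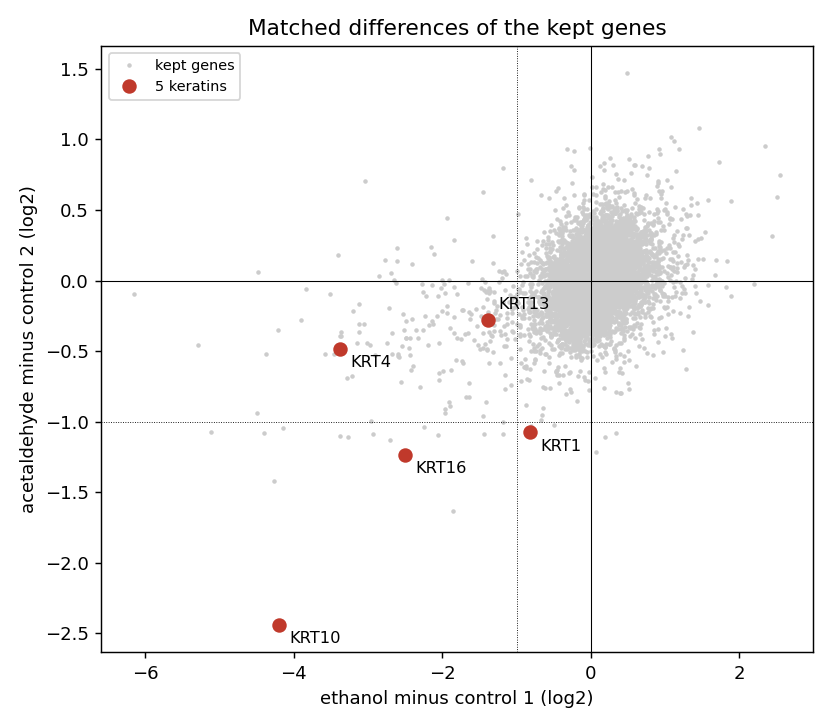
Matched log2 differences of 10373 genes (grey points) and of 5 keratins (red points), with ethanol minus control 1 on the horizontal axis and acetaldehyde minus control 2 on the vertical axis. Dotted lines mark 2-fold lower, and KRT10 lies lowest on the vertical axis, at -2.44.

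The genes whose 3 differences were nearest to those of a keratin were found by Euclidean distance over the differences of ethanol from control 1, acetaldehyde from control 2, and control 2 from control 1, which rest on 4 arrays. Nearest to KRT10 were PI3 (the protease inhibitor elafin) at a distance of 1.76 log2 units, CALB1 (a calcium-binding protein) at 1.98 and SPRR1B (a small proline-rich envelope protein) at 2.18. KRT16 came next among the keratins, 2.27 from KRT10. Nearest to KRT16 were ZNF750 (a transcription factor of epidermal differentiation) at 0.528, DLX5 (a homeobox factor) at 0.556 and ALDH3B2 (an aldehyde dehydrogenase) at 0.804. KRT4 had closer neighbours, namely CYP4F22 (a fatty acid hydroxylase of epidermal ceramide synthesis) at 0.209, GSDMC (a gasdermin) at 0.233 and ADGRL2 (an adhesion G protein-coupled receptor) at 0.280. KRT4 and its partner KRT13 were 2.42 apart, and KRT10 and its partner KRT1 were 3.79 apart.

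The rest of the keratin family was read in the same way. Of 43 other keratin genes with values, 30 were dim on all 4 arrays and 13 were kept. With ethanol, 3 of the 13 were 2-fold or more lower and 0 higher (median -0.38), beside 2.11% and 1.17% of all genes. With acetaldehyde 0 were 2-fold apart (median -0.06), a count that the shares of all genes, 0.212% lower and 0.0289% higher, would also give. In control 2, 4 were at least 2-fold lower than in control 1 (median -0.56), beside 4.85% of all genes.

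The 3 genes lower with ethanol were KRT23, KRT80 and KRT78. All 3 passed the filter on dim signal through control 1 alone, the array they are then set against, which favours a lower value with ethanol, so their count supports nothing. KRT23, a type I keratin, was at 37.9 with ethanol against 212 in control 1, and at 95.9 with acetaldehyde against 127 in control 2. KRT80, a type II keratin, was at 145 with ethanol against 706 in control 1, and at 98.7 with acetaldehyde against 100.3 in control 2. KRT78, also type II, was at 69.1 with ethanol against 298 in control 1, and at 115 with acetaldehyde against 101 in control 2. For KRT80 and KRT78, as for KRT4, control 1 was the high array and the other 3 were low.

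The basal keratin KRT14 measured 3212 intensity units with ethanol against 5075 in control 1, and 822 with acetaldehyde against 1587 in control 2. It was lower by -0.66 with ethanol and by -0.95 with acetaldehyde, short of 2-fold, and control 2 was 3.20-fold below control 1. KRT15, a basal and progenitor-cell keratin, was at 815 with ethanol against 1071 in control 1, and at 96.9 with acetaldehyde against 125 in control 2. Both arrays of the acetaldehyde experiment were low for KRT15, with control 2 lower than control 1 by 8.55-fold, and the exposures differed from their own controls by -0.39 and -0.37.

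KRT5, the type II partner of KRT14, was bright on every array, at 9757 with ethanol against 11172 in control 1, and at 10366 with acetaldehyde against 12169 in control 2. It differed by -0.20 with ethanol and -0.23 with acetaldehyde. The luminal keratin KRT8 differed by 0.75 and 0.22, and its partner KRT18 by 0.63 and 0.12, with a second KRT18 probe set at 0.71 and -0.12. KRT7, a simple epithelial keratin, differed by 0.00 and 0.04. KRT19, KRT3, KRT33A and KRT33B lay between -0.44 and -0.15 with ethanol and between -0.54 and -0.01 with acetaldehyde.

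**Figure D3:**
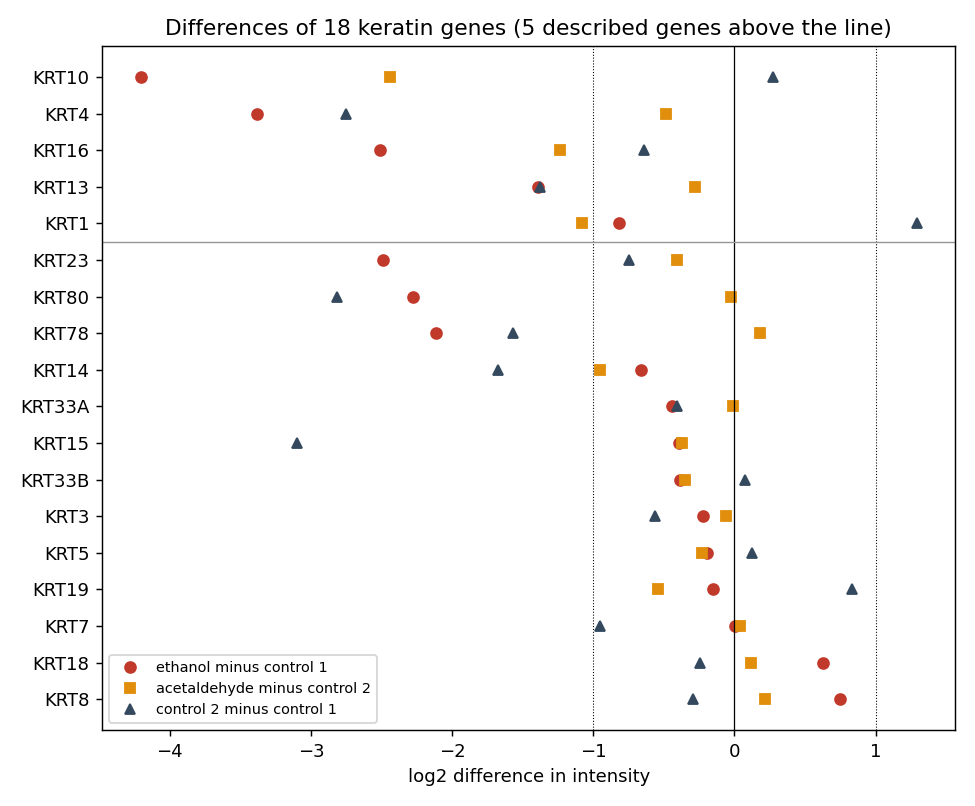
Log2 differences of 18 keratin genes, 5 described above the grey line and the 13 other kept keratins below it, for ethanol minus control 1 (circles), acetaldehyde minus control 2 (squares) and control 2 minus control 1 (triangles), each from 1 array against 1. Dotted lines mark 2-fold, and KRT10 and KRT16 are 2-fold lower with both exposures while their triangles lie within 2-fold of 0.

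Type II keratin genes, with KRT18, lie together on chromosome 12 and type I genes on chromosome 17, in the order given by RefSeq (GRCh38.p14). Of the keratin genes with values, 21 lie on chromosome 12 and 27 on chromosome 17, and 9 of each were kept. KRT4 stands between KRT3 and KRT79 among the genes with values, and these differed by -0.22 and -0.26 with ethanol, KRT79 being dim on all arrays. The neighbours of KRT10 among them, KRT28 and KRT12, were dim on all arrays and differed by -0.08 and -0.40. KRT16 stands next to KRT14 in the same list.

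**Figure D4:**
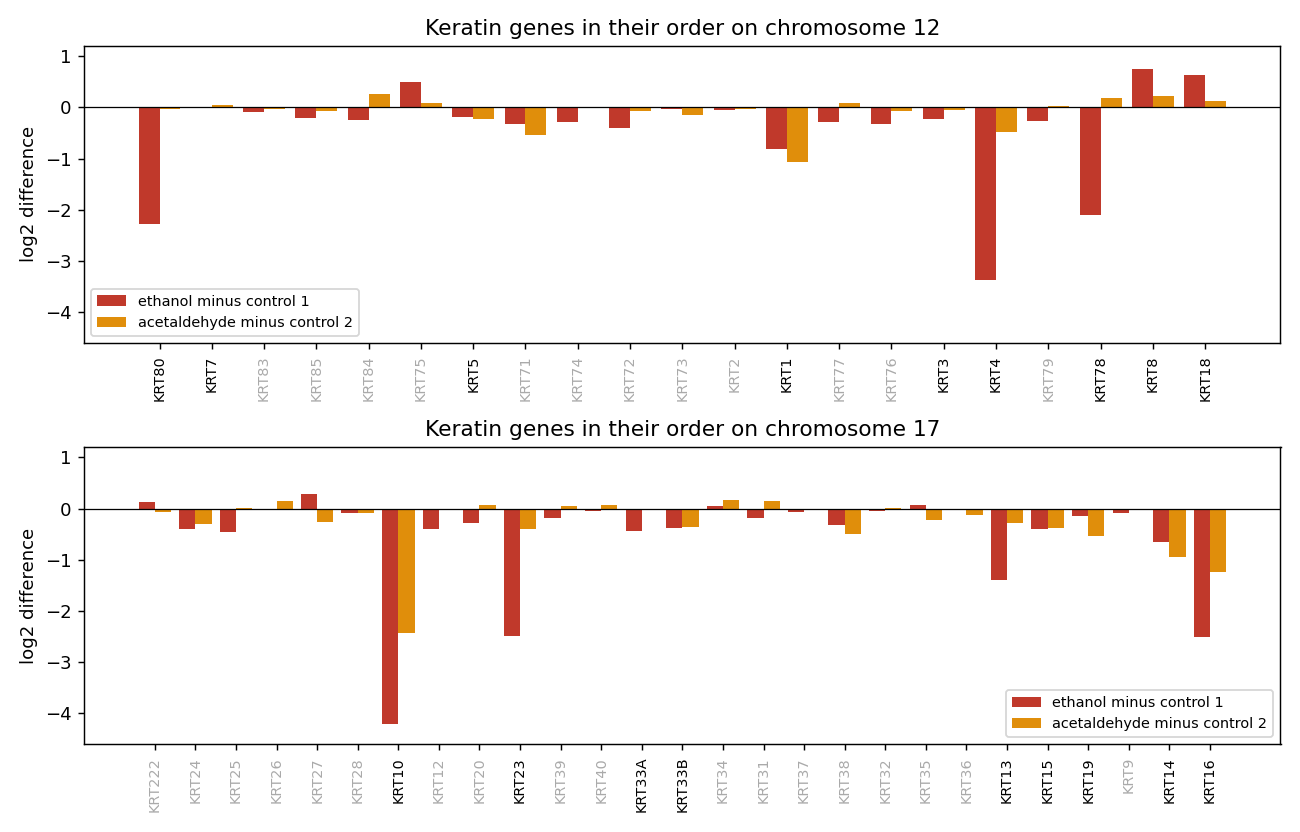
Log2 differences of keratin genes in their order on chromosomes 12 (21 genes) and 17 (27 genes), for ethanol minus control 1 (red bars) and acetaldehyde minus control 2 (orange bars), with names of genes dim on all arrays in grey. Long red bars stand singly, at KRT80, KRT4 and KRT78 on chromosome 12 and at KRT10, KRT23, KRT13 and KRT16 on chromosome 17.

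Keratin filaments are anchored at desmosomes and hemidesmosomes. From a list of genes of these junctions, their linkers and other adhesion genes (CDH1 and CTNNB1), 19 were kept. With ethanol 6 of 19 were lower by 2-fold or more and 0 higher (median -0.59), beside 2.11% and 1.17% of all genes. With acetaldehyde 0 of 19 were 2-fold apart (median -0.16), as the shares of all genes, 0.212% lower and 0.0289% higher, would also give. In control 2, 6 were at least 2-fold lower than in control 1 (median -0.33), beside 4.85% of all genes. The desmosomal cadherin DSG1 was at 26.7 with ethanol against 168 in control 1, and at 41.3 with acetaldehyde against 41.1 in control 2. PPL, periplakin, which links keratin to the cell border, was lower by -1.74 with ethanol, -0.57 with acetaldehyde and -1.76 between the controls. The desmosomal cadherins DSC2 (-1.39 and -0.22) and DSG3 (-1.16 and -0.77) were also 2-fold lower with ethanol and not with acetaldehyde. Control 2 was over 2-fold below control 1 for these 4 genes. The other 2 genes lower with ethanol, named after their values were seen, were the desmosomal linker DSP (-1.02) and the envelope linker EVPL (-1.06). For them the controls differed by only -0.17 and 0.20, and both genes lay close to the 2-fold threshold. The count lower with ethanol was 5 when 50 was added to each intensity, and also when the 4 arrays were normalized together. DSG1 passed the filter through control 1 alone. Of the 19 genes, 13 were lower to any degree with ethanol. The desmosomal cadherin DSG2 was higher with ethanol (0.80), short of 2-fold. PLEC (0.53), DST (0.56), CTNNB1 (0.43), ITGA6 (0.37) and ITGB4 (0.14) were also higher with ethanol.

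Of 24 kept regulators of keratinocyte differentiation, 9 were lower by 2-fold or more with ethanol and 0 higher (median -0.58), beside 2.11% and 1.17% of all genes. Of the 9, 2 passed the filter through control 1 alone. With acetaldehyde 1 was 2-fold lower (median -0.25), beside 0.212% of all genes. In control 2, 5 were 2-fold lower than in control 1 (median -0.26), beside 4.85% of all genes. The 1 gene lower with acetaldehyde was ZNF750. It was at 246 with ethanol against 1870.3 in control 1, and at 465 with acetaldehyde against 988 in control 2. It had both exposed arrays below both controls, as KRT16 had. EHF, an ETS factor of epithelia, was lower by -3.28 with ethanol and -0.69 with acetaldehyde. The grainyhead factors GRHL1 (-2.75 and -0.44) and GRHL2 (-2.41 and -0.27) were lower mainly with ethanol. Control 2 was over 3-fold below control 1 for EHF, GRHL1 and GRHL2. GRHL2 was among the 2 genes that passed the filter through control 1 alone, which favours a lower value with ethanol.

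Of 24 kept genes of the cornified envelope, the crosslinked protein shell of the dead outer cell, 23 were lower by 2-fold or more with ethanol (median -2.59), 2 with acetaldehyde (median -0.33), and 19 in control 2 against control 1 (median -2.23). Of the 23, 7 passed the filter through control 1 alone. DSG1, PPL and EVPL are among the 23 and are also counted with the anchoring genes above, so these counts overlap. Over all genes, 2.11% were lower with ethanol, 0.212% with acetaldehyde and 4.85% in control 2 against control 1. SPRR1A and SPRR1B were the 2 genes lower with acetaldehyde, at -1.07 and -1.08 with acetaldehyde. SPRR3 (-6.16 and -0.09) and KRTDAP, a keratinocyte differentiation protein (-3.36 and -0.36), had control 1 as their high array. KRTDAP was among the 7 genes that passed the filter through control 1 alone. KRT4 and KRT13 were likewise at least 2-fold lower in control 2 than in control 1, and KRT10 was not.

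Of 14 kept genes of the growth factor, interleukin and antimicrobial list that accompanies stress keratins in skin, 4 were at least 2-fold lower and 1 higher with ethanol (median -0.79), 2 were lower with acetaldehyde (median -0.20), and 2 were lower and 1 higher in control 2 than in control 1 (median -0.16). Over all genes, 2.11% were lower and 1.17% higher with ethanol, and 0.212% were lower with acetaldehyde. Between the controls, 4.85% of all genes were lower and 4.25% higher in control 2. PI3 was at 563 with ethanol against 5416 in control 1, and at 1911 with acetaldehyde against 4120.1 in control 2. The calcium-binding antimicrobial partners S100A8 (-1.82 and -0.56) and S100A9 (-1.96 and -0.94) were lower with both exposures and not lower in control 2 than in control 1 (0.82 and 0.38). The cytokine IL1B was lower with ethanol (-1.46) and higher with acetaldehyde (0.63).

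Markers of the breast lineages were compared on the same arrays. The summed intensity of 4 basal markers was 22252 with ethanol against 24066 in control 1, and 22021 with acetaldehyde against 24282 in control 2. Of these 4, 2 were lower with ethanol (KRT5 and KRT14) and 3 with acetaldehyde (medians -0.03 and -0.12). The integrin subunits ITGA6 (0.37 with ethanol and 0.12 with acetaldehyde) and ITGB4 (0.14 and -0.01) were higher with ethanol. The 6 luminal markers summed to 12984 with ethanol against 9604 in control 1, and to 6867 with acetaldehyde against 6729.9 in control 2. These sums are carried by the bright KRT8 and KRT18, and 3 of the 6 markers were lower with each exposure (medians 0.24 and -0.14). The 3 were MUC1, a mucin (-0.38 with ethanol and -0.67 with acetaldehyde), GATA3, a luminal transcription factor (-0.32 and -0.41), and KRT19 (-0.15 and -0.54). EPCAM, an epithelial adhesion molecule, was higher with both exposures (0.70 and 0.35), as were KRT8 and KRT18 at the probe sets used. A second EPCAM probe set gave 0.63 and 0.38. Of 7 fibroblast markers 5 were dim on all arrays. The sum of all 7 was 459 with ethanol against 552 in control 1, and 877 with acetaldehyde against 901 in control 2. All 3 endothelial markers and 2 of 4 leukocyte markers were dim on all arrays. The fibroblast marker DCN was at 34.6 with ethanol and 34.8 in control 1, and at 187 with acetaldehyde and 177 in control 2, so that it separated the experiments and not the exposures. The part of these lineages in the keratin differences was not tested.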

How the data were processed

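RNA of 4 MCF12A cultures was measured on 4 arrays, 1 per group, with groups taken from the sample labels. The authors deposited 1 intensity per probe set on a linear scale (3.13 to 22858), made with RMA per the submitters' processing notes, whose software is not given in the sources used here. Whether the experiments were normalized together is not given there either, so differences were taken within each experiment, and the controls are compared with that limit. Log2 was taken with no offset. Of 33297 probe sets the platform annotation gave 1 gene symbol for 19460, several for 1754 and none for 12083. Only the 19460 were used, and for a gene with several the one with the highest mean was taken. Genes whose brightest array reached log2 7.28 (intensity 155) were kept. With 1 array against 1, no test was run. The precision is limited by the number of arrays. The genes and lists were chosen with earlier results of these data known.

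The genes named are the measured keratins, other kept keratins (those 2-fold apart in any difference, with the remaining ones added after their values were seen), up to 4 members of each list with the largest matched difference, and the 3 genes nearest to KRT10, KRT16 and KRT4. List members outside this rule (DSP, EVPL, DSG2, PLEC, DST, CTNNB1, CDH1 and GATA3) were named after their values were seen. TP63 and other listed genes with no value were not analysed here. The counting of calls was run on simulated arrays without noise, in which some genes were raised on the ethanol array. Its outcome was set in advance, so it checks the code only, and lowered genes were not simulated. Calculations used Python 3.11.15, numpy 2.4.6, pandas 2.3.3 and matplotlib 3.10.9. Other normalizations, offsets, controls, thresholds and probe sets were tried, with effects given in the closing section.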

Additional observations from a re-analysis of the deposited data

Results flagged for a closer look

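Of the 32 list genes picked for naming, 4 had matched differences that pointed in opposite directions and lay at least 2-fold apart, and this difference between the exposures was not tested. The same held for 8 of the 98 kept genes of all lists and for 123 of the 10373 kept genes. The 32 were picked for large differences, which favours such a result, so nothing is read from their larger share. KRT78 and DSG1 passed the filter on dim signal through control 1 alone. KRT78 was at -2.11 with ethanol and 0.18 with acetaldehyde, a difference of -2.30. DSG1 was at -2.66 with ethanol and 0.01 with acetaldehyde, a difference of -2.66. Its acetaldehyde value, 41.3 against 41.1 in control 2, was dim and gives no direction. IL1B was at -1.46 with ethanol and 0.63 with acetaldehyde, a difference of -2.09. CD14, a receptor of the leukocyte list, was at 0.60 with ethanol and -0.61 with acetaldehyde, a difference of 1.21. None of the 5 measured keratins KRT1, KRT10, KRT4, KRT13 and KRT16 did so. With 1 array per group no array could be tested as an outlier of its group.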

How the results depend on the processing

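No paired analysis was possible because the results come from no test: each group has 1 array, and each exposed array is already set against the control of its own experiment. All 5 measured keratins stayed lower with both exposures when the 4 arrays were normalized together, when 50 was added to each intensity and when differences were centred on all genes. With 50 added, 2 of them were at least 2-fold lower with acetaldehyde, as KRT1 moved to -0.80. The choice of probe set and the filter on dim genes could not change them, since each has 1 probe set that names it alone and all pass. With the control of the other experiment the median was -1.87 for ethanol and -1.87 for acetaldehyde, and KRT1 turned to 0.22 with acetaldehyde. With the shared KRT16 probe set, chosen after seeing the data, the ethanol median was -1.39. At 3-fold, 1 keratin was lower with acetaldehyde and 1 in control 2. The list alternatives were also added after seeing the data. With the other experiment's control, the counts at least 2-fold lower with ethanol were 1 for other keratins, 1 for anchoring genes, 5 for regulators and 8 for envelope genes, and those with acetaldehyde were 5, 8, 7 and 21. At 1.5-fold, the acetaldehyde counts were 1, 2, 5 and 5 in the same order, anchoring genes lower with ethanol numbered 11, and regulators lower in control 2 numbered 8. The cause was not tested.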

Other observations

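KRT10-AS1, the antisense gene at the KRT10 locus, measured 77.1 intensity units with ethanol against 63.5 in control 1, and 95.3 with acetaldehyde against 64.8 in control 2. It was dim on all 4 arrays and did not share the direction of KRT10, at 0.28 with ethanol and 0.56 with acetaldehyde. KRT17P5, a pseudogene of KRT17, had 2 probe sets, which differed by -0.64 and -0.44 with ethanol and by -0.11 and -0.21 with acetaldehyde, and neither stands for KRT17.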
